A study of Mus musculus with 8 samples.

Results

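The proteasome and immunoproteasome genes described here are the genes with a protein-coding transcript whose symbol begins with Psm, one of the letters a to g and a digit. The rule uses names only, and it took 50 of the 55335 genes in the files. RNA was sequenced from cells labelled as CD8 T cells infiltrating B16 tumours of C57BL/6 mice, either wild type (WT) or lacking CD36 (CD36_KO). CD36 is a scavenger receptor that takes up fatty acids and oxidised lipoproteins, and B16 is a mouse melanoma line. All mice received B16 cells intravenously, and tumours grew for 14 days before CD8 T cells were sorted, per the labels' protocols. The knockout allele, the age and number of the animals and the sorting gates were not stated in the labels. By their titles the 8 samples are 4 lanes of a single library for each genotype, so lanes were summed, and every contrast compares 1 library with 1 library, without a replicate check and without a p-value.

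The proteasome degrades proteins tagged with ubiquitin. Its 20S core is a barrel of outer alpha rings and inner beta rings, and only 3 kinds of beta subunit, Psmb5, Psmb6 and Psmb7, cut peptides. In lymphocytes, and in cells exposed to interferon gamma, these can be replaced by the immune subunits Psmb8, Psmb9 and Psmb10, which favour peptides that fit MHC class I. The 19S cap recognises, unfolds and feeds in the substrate, and the PA28 activator, made of Psme1 and Psme2, binds the core in its place. Constitutive subunits are commonly regulated together by the factor Nfe2l1, and immune subunits by factors that act downstream of interferon gamma, such as IRF1.

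Psmb8, Psmb5 and Psmb6 hold, in the 250 bases before their RefSeq start, a match to an element known for one of these programmes. These windows are shown with the match in capitals. The first is a match to the gamma-activated site, an element known from genes induced by interferon gamma (TTCNNNGAA), and the others match the core of the antioxidant response element (TGACNNNGC), which Nfe2l1 and its relatives bind. All are 30-base windows, read 5′ to 3′ on the gene's strand, from RefSeq promoters on GRCm38.p6, with the positions chr17:34198088-34198117 (+) for Psmb8, chr14:54618023-54618052 (−) for Psmb5 and chr11:70525327-70525356 (+) for Psmb6.
Psmb8: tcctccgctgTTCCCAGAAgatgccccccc
Psmb5: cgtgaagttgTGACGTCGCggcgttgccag
Psmb6: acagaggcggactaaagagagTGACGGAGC
The match begins 97 bases before the RefSeq start in Psmb8, 47 in Psmb5 and 9 in Psmb6. In GENCODE M21 the Psmb5 and Psmb6 windows lie outside the gene, but that of Psmb8 lies inside it. There 2 of its 7 transcripts, Psmb8-201 and Psmb8-203, start further upstream and span the window, which is in an exon of Psmb8-201. Both are protein-coding and held most of the gene's protein-coding counts (16.3 and 150.1 in WT, 71.6 and 227.3 in CD36_KO). For these transcripts the match does not lie before the start. Of 32851 promoters searched in the 250 bases before the start on both strands, 7.02% held the gamma-activated site and 10.2% the antioxidant core. Of the 42 proteasome genes with a RefSeq promoter, 2 (4.76%) held the former (Psmb8 and Psmg1). The latter was in 5 (11.9%), Psmb5, Psmb6, Psmc6, Psmd12 and Psmd9. Neither share stands far from that of all promoters. An interferon-stimulated response element core (GAAA, any 2 bases, GAAA) was in 2.98% of promoters. Among these genes it was in Psmb3, Psmd4 and Psmd9 (7.14%), none of them an immune subunit. The windows of Psmb9 and Psmb10 held none of these letter patterns. In GENCODE M21, however, the Psmb9 window lies inside the gene, and that of Psmb10 overlaps the upstream end of its gene. The bases before the GENCODE starts of these genes were therefore not fully searched. A match of letters describes the window and was not tested as a binding site.

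The immune catalytic subunits stood higher against their constitutive partners in the CD36_KO library than in the WT library, for each of the 3 pairs. Because both genes of a pair are read in the same library, this ratio does not depend on how the libraries are scaled. The ratio of Psmb8 to Psmb5 was 2.43-fold higher (95% counting interval 1.99 to 2.96), that of Psmb9 to Psmb6 2.58-fold higher (2.02 to 3.30), and that of Psmb10 to Psmb7 1.5-fold higher (1.22 to 1.84). Such intervals are exact and cover counting error only, not variation between mice or preparations.

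Psmb8 (LMP7, ENSMUSG00000024338.15, chr17:34197721-34201454, + strand of GRCm38) is the immune subunit with chymotrypsin-like activity, and it replaces Psmb5 (ENSMUSG00000022193.7, chr14:54614119-54618022, −). Psmb8 had 106, 114, 110 and 101 estimated counts in WT lanes 1 to 4 and 159, 134, 140 and 157 in the CD36_KO lanes. Psmb5 had 106, 115, 138 and 125 counts in the WT lanes and 65, 72, 58 and 78 in the CD36_KO lanes. Every CD36_KO lane thus had more Psmb8 and fewer Psmb5 counts than any WT lane, although scaled to CPM the lowest Psmb8 lane of CD36_KO (48.7) just met the highest of WT (48.8). Psmb8 made up 47.1% (exact interval 43.8 to 50.4) of the counts of this pair in WT and 68.4% (65.1 to 71.5) in CD36_KO, from 44.4% to 50.0% over WT lanes and 65.1% to 70.9% over CD36_KO lanes. On the deposited TPM scale, which corrects for transcript length, Psmb8 was at 23.3 ± 1.77 in WT and 39.9 ± 2.83 in CD36_KO (SD, n = 4 lanes). Psmb5 was at 32.3 ± 4.13 TPM in WT and 23.5 ± 3.10 in CD36_KO, so that Psmb5 led in WT and Psmb8 in CD36_KO.

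Psmb9 (LMP2, ENSMUSG00000096727.3, chr17:34181987-34187764, −) replaces Psmb6 (ENSMUSG00000018286.6, chr11:70525367-70527858, +), the subunit with caspase-like activity. Psmb9 had 47, 40, 45 and 29 counts in the WT lanes and 85, 67, 81 and 81 in the CD36_KO lanes. Psmb6 had 126, 94, 103 and 99 counts in the WT lanes and 80, 91, 75 and 73 in the CD36_KO lanes. Neither gene overlapped between the genotypes' lanes. Psmb9 gave 27.6% (24.0 to 31.4) of the pair's counts in WT and 49.6% (45.6 to 53.6) in CD36_KO. It was the least abundant immune subunit in both libraries, at 7.02 ± 0.67 TPM in WT and 16.7 ± 2.01 in CD36_KO. Psmb6 stood at 33.2 ± 3.40 and 32.1 ± 3.01 TPM, a difference below its lane SD on that scale.

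Psmb10 (MECL-1, ENSMUSG00000031897.9, chr8:105935735-105938444, −) replaces Psmb7 (ENSMUSG00000026750.6, chr2:38588036-38644087, −), the subunit with trypsin-like activity. Psmb10 had 82, 89, 97 and 76 counts in the WT lanes and 73, 85, 98 and 96 in the CD36_KO lanes, which overlap. Psmb7 had 128, 122, 149 and 118 counts in the WT lanes and 86, 95, 84 and 87 in the CD36_KO lanes, which do not. In counts, then, the lanes of this pair were apart for the constitutive partner alone. Psmb10 gave 40.0% (36.7 to 43.4) of the pair's counts in WT and 50.0% (46.2 to 53.8) in CD36_KO, and 39.1% to 42.1% against 45.9% to 53.8% over lanes. By TPM, Psmb10 was at 21.7 ± 3.69 and 29.0 ± 5.73, and Psmb7 at 24.0 ± 2.32 and 20.6 ± 1.04.

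The 3 immune subunits together held 936 counts beside 1422 of their partners in WT, and 1256 beside 944 in CD36_KO. Their share of these counts was 39.7% and 57.1%, and their share of the summed TPM 36.8% and 52.9%. The summed immune-to-constitutive ratio was 2.02-fold higher in CD36_KO (1.79 to 2.28). Counted on protein-coding transcripts alone, the log2 ratio of ratios was 1.69 in place of 1.28 for Psmb8 with Psmb5, and 0.91 in place of 1.37 for Psmb9 with Psmb6.

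**Figure D1:**
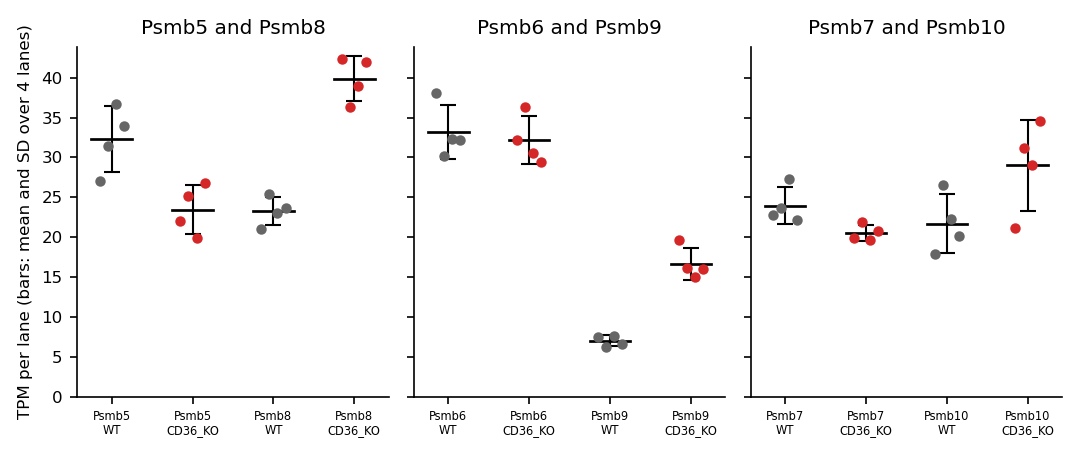
TPM per lane (vertical axis) of each constitutive subunit and the immune subunit that replaces it, in WT (grey) and CD36_KO (red), with the mean and SD over 4 lanes of 1 library. Psmb8 is above Psmb5 in CD36_KO and below it in WT, Psmb9 is higher in every CD36_KO lane than in any WT lane, and the Psmb10 lanes overlap.

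Whose RNA these libraries hold bears on every value. Summed over the list, 12 CD8 T cell markers gave 336 to 351 CPM (counts per 1000000 of the scaled library) over WT lanes and 1146 to 1189 over CD36_KO lanes, and all 12 were at least 2-fold higher in CD36_KO. Over all measured genes, 6.5% were at least 2-fold higher and 10.8% lower. The 12 melanoma markers gave 5639 to 5870 CPM in WT and 1369 to 1416 in CD36_KO, all 12 at least 2-fold lower. By these sums, not corrected for length, they exceeded the markers of the labelled cell type in both libraries. By summed TPM they did so in WT (1292 against 142), and in CD36_KO the order turned (449 against 697). The 12 macrophage markers gave 5475 to 5558 and 3999 to 4040 CPM, with 3 at least 2-fold lower and Ccr2 higher, at a log2 ratio of 0.92. Of 6 measured fibroblast markers 5 were at least 2-fold lower (1154 to 1202 CPM in WT, 279 to 286 in CD36_KO), while Pdgfrb was higher, at a log2 ratio of 0.75. At least 2-fold higher were 7 of 8 B cell markers (72.3 to 80.4 and 239 to 253 CPM), 5 of 5 neutrophil markers (71.7 to 85.5 and 235 to 263), 5 of 5 erythroid markers (328 to 371 and 1045 to 1054) and 7 of 8 hepatocyte markers (422 to 463 and 1101 to 1132). Dendritic cell markers were at 218 to 246 and 304 to 330 CPM, with 1 of 5 higher. No listed gene was at 0 in either library. Beside the exchange described above, the CD8 T cell, B cell, neutrophil, erythroid, hepatocyte and dendritic cell sums were higher in CD36_KO. The melanoma, macrophage and fibroblast sums were lower. The subunits of each cell type were not measured here, and the part of any of them in the exchange was not tested. In bulk RNA, fewer cells of a type and less RNA per cell cannot be told apart. Cd36 itself had 1194 counts in WT and 358 in CD36_KO, a log2 ratio of -1.98 (-2.15 to -1.80), which goes with the labels, although reads remained in the CD36_KO library.

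Of the 50 genes, 46 reached a mean of 5 CPM and count as measured. Psma8, the testis form of an alpha subunit, had 4 and 13 counts, Psmb11, the thymus form of Psmb5, 30 and 35, the assembly chaperone Psmg4 54 and 45, and Psmc3ip, a recombination protein that the rule takes by its symbol alone, 33 and 29. The measured genes were of middle abundance, with a median of 40.1 CPM beside 23.4 for all 12177 measured genes. All 50 genes together took 0.2115% of WT counts and 0.1793% of CD36_KO counts.

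Most proteasome genes had lower scaled counts in the CD36_KO library, by modest amounts. The log2 ratio of CD36_KO to WT, on counts scaled by TMM (trimmed mean of M-values), had a median of -0.46 over the 46 genes beside -0.13 over all measured genes, and 39 of the 46 lay below the median of all genes. At least 1.5-fold lower, with an interval that excludes no difference, were 15 genes (32.6%), beside a background of 23.2% of all measured genes and 23.8% of the protein-coding ones. Among the 15, Psmg3 (6.80 CPM in WT, 4.42 in CD36_KO) passed the filter only through WT, where it is high. At least 1.5-fold higher were 2 (4.35%), Psmb9 and Psme2b, beside 13.5% and 11.8%. Psme2b, at 4.04 CPM in WT and 19.2 in CD36_KO, passed the filter only through CD36_KO, where it is high. Its calls here and below therefore carry no weight of their own. At the 2-fold threshold 1 gene was lower, Psmb5 (2.17%, background 10.8% and 10.6%), and 1 was higher, Psme2b (2.17%, background 6.5% and 5.82%). Lanes of the genotypes did not overlap for 30 genes that were lower (65.2%, background 33.3% and 35.0%) and 3 that were higher (6.52%, background 19.6% and 18.7%). The lower values depend on the scale. By deposited TPM none of the 46 was 1.5-fold lower (background 6.57%), and the median turned to 0.11 while that of all genes rose to 0.37, so that relative to all genes it was -0.33 on the TMM scale and -0.26 by TPM.

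**Figure D2:**
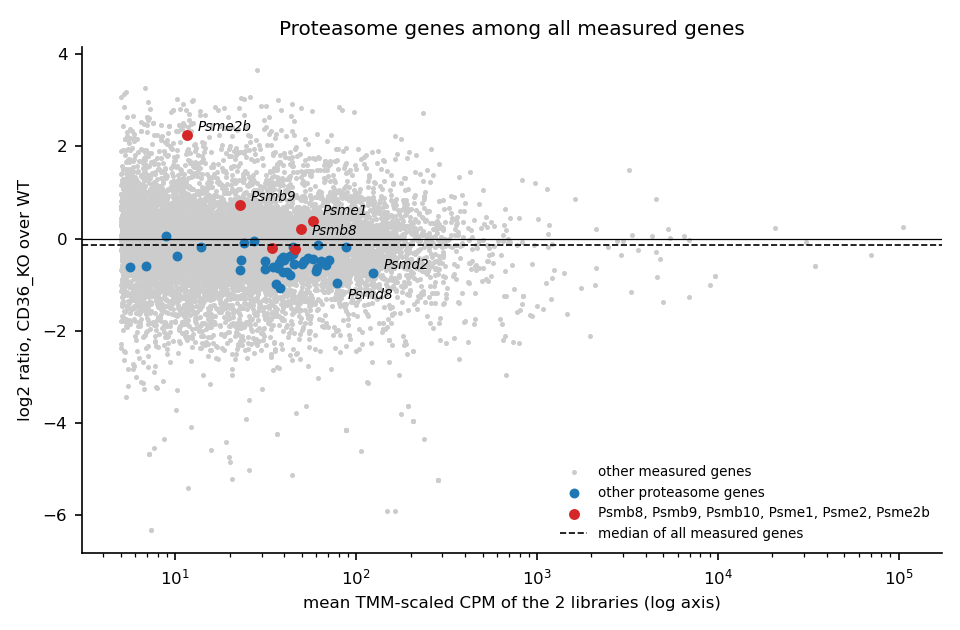
Log2 ratio of CD36_KO to WT (vertical axis) against the mean CPM of both libraries (horizontal log axis), with 1 point per measured gene. Most proteasome genes (blue) sit in a narrow band below the dashed median of all genes at -0.13. The immune subunits, Psme1, Psme2 and Psme2b (red) sit around or above it. On the TPM scale the whole cloud and the blue points shift upward.

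Within the 20S core the 7 measured alpha subunits, which form the gated outer rings, had a median log2 ratio of -0.39, and all lay below the median of all genes. Only Psma5 passed 1.5-fold, at -0.65 (-0.88 to -0.42). Psma3 at -0.14 and Psma2 at -0.18 were nearest to no change, with overlapping lanes, but on protein-coding transcripts alone, which held the smaller part of its counts, Psma3 was at 0.75. The non-catalytic beta subunits, which complete the inner rings, ran from Psmb1 at -0.44 to Psmb2 at -0.67, with Psmb3 (-0.60) and Psmb4 (-0.63) also at least 1.5-fold lower. All 3 constitutive catalytic genes passed 1.5-fold: Psmb5 at -1.06 (-1.28 to -0.85), Psmb7 at -0.79 (-0.99 to -0.59) and Psmb6 at -0.64 (-0.86 to -0.43). They had the lowest median of any role, -0.79. Psmb5 kept a negative value by TPM, at -0.44 on the log2(TPM + 1) scale, whereas Psmb2 turned to 0.041. The immune subunits were at 0.73 (0.45 to 1.01) for Psmb9, 0.21 (0.03 to 0.40) for Psmb8 and -0.21 (-0.42 to 0.01) for Psmb10. Psmb9 alone among them passed 1.5-fold. On protein-coding transcripts alone Psmb9 came to 0.41, under that threshold, and Psmb8 to 0.78, past it, and by TPM the value of Psmb10 turned positive, to 0.40.

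The 17 genes of the 19S cap were all below the median of all genes. Of these 6 were at least 1.5-fold lower, beside 23.2% of all measured genes and 23.8% of the protein-coding ones. With the median of protein-coding genes of like expression and length taken off, the cap's median was -0.24, with 13 genes below 0 and 4 above. In the base, whose ATPases unfold the substrate, Psmc4 was at -0.73 (-0.94 to -0.52) and Psmc3 at -0.70 (-0.87 to -0.53), and the other 4 ATPases ran from -0.52 for Psmc5 to -0.38 for Psmc1. By TPM, Psmc3 and Psmc4 stood at 0.0014 and 0.027. Psmd2, a scaffold that docks ubiquitin receptors, was the most abundant proteasome gene in counts, with 365, 362, 374 and 360 in the WT lanes and 280, 270, 247 and 237 in the CD36_KO lanes. Its log2 ratio was -0.74 (-0.85 to -0.62). The ubiquitin receptor Psmd4 was at -0.72 (-0.92 to -0.51), and the scaffold Psmd1 at -0.47.

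The lid, which holds the deubiquitinase that strips ubiquitin from the substrate, contained both genes that came closest to Psmb5. Psmd7, the partner of that enzyme, had 118, 117, 112 and 102 counts in the WT lanes and 71, 58, 74 and 66 in the CD36_KO lanes, a log2 ratio of -0.98 (-1.20 to -0.76). Psmd8 had 262, 225, 242 and 242 counts beside 148, 141, 160 and 142, a log2 ratio of -0.95 (-1.10 to -0.81). Both sets of lanes were far apart. The deubiquitinase itself, Psmd14, was at -0.43 (-0.64 to -0.22), and the other lid genes Psmd3, Psmd6, Psmd11, Psmd12 and Psmd13 lay between -0.55 and -0.43. The members of 1 complex therefore did not move by equal amounts, and the intervals of Psmd7 and Psmd8 do not meet that of Psmd14.

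**Figure D3:**
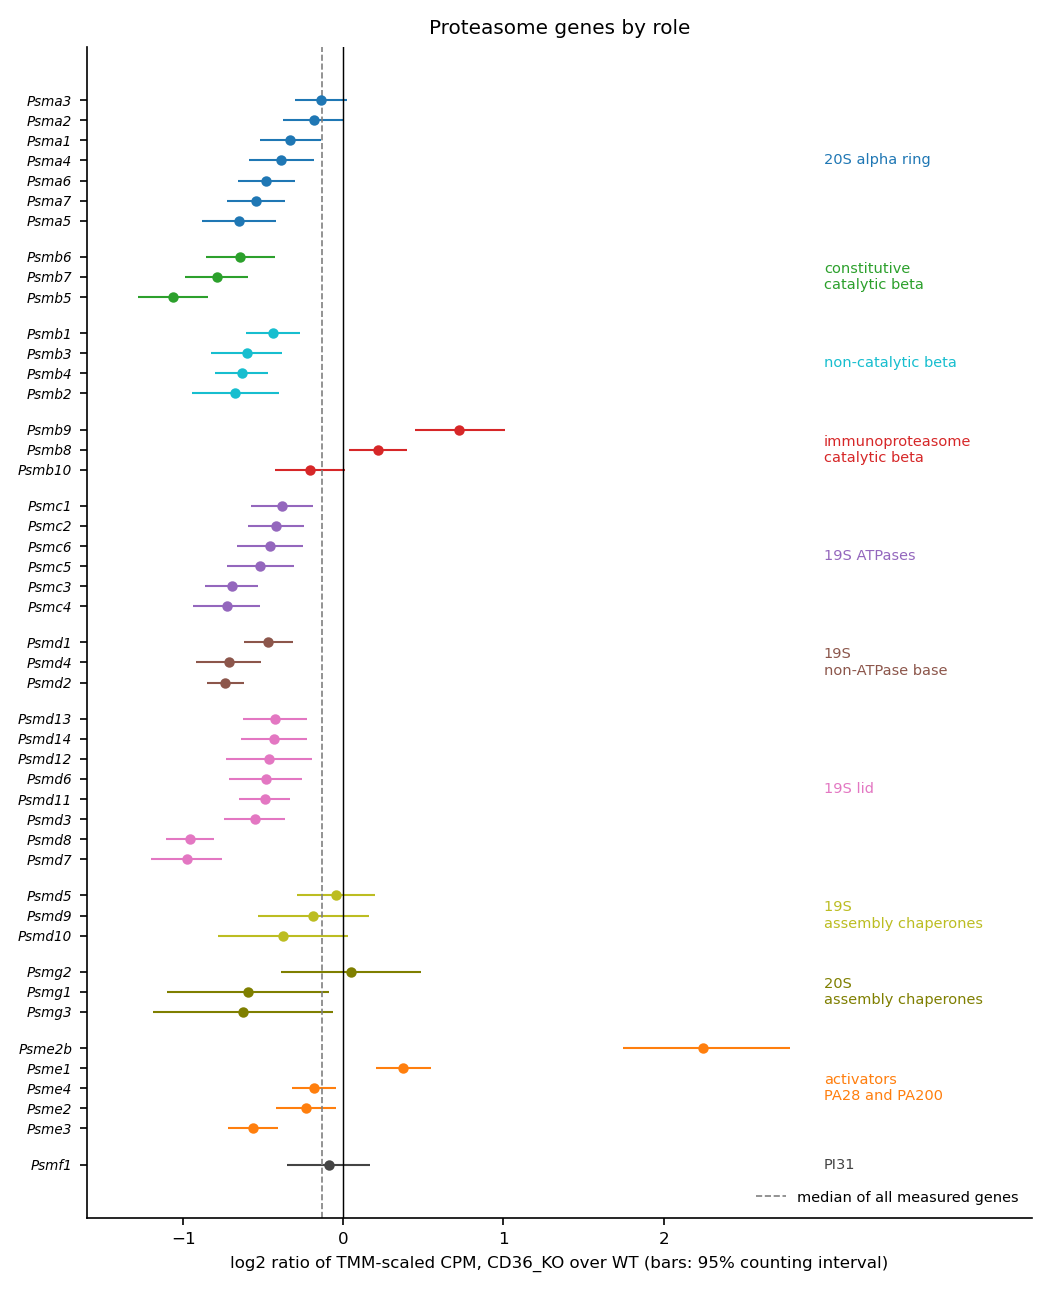
Log2 ratio of TMM-scaled CPM, CD36_KO over WT (horizontal axis), of the 46 measured genes grouped by role, with bars for the 95% counting interval and a dashed line at the median of all measured genes. All 31 constitutive core and cap genes lie to the left of the dashed line, as do Psmb10 and Psme2, among others. To its right lie Psmb9, Psmb8, Psme1 and Psme2b, and also Psmg2, Psmd5 and Psmf1. By TPM most constitutive values turn positive but their median stays below that of all genes.

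Other proteins build or adjust the particle. The cap's assembly chaperones Psmd5, Psmd9 and Psmd10 were at -0.05, -0.19 and -0.38, with intervals that include no difference. Among the chaperones of the core, Psmg1 (-0.59, -1.10 to -0.09) and Psmg3 (-0.62, -1.19 to -0.06) were at least 1.5-fold lower on 78 and 61 and on 64 and 49 counts, with overlapping lanes, and Psmg2 was at 0.05. With 6.80 CPM in WT and 4.42 in CD36_KO, Psmg3 passed the filter only through WT, so its call carries no weight of its own. By TPM Psmg1 turned to 0.070, and on protein-coding transcripts alone Psmg3 was at -1.20. The inhibitor-like Psmf1 (PI31) was at -0.09 (-0.35 to 0.17).

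The activators split. Psme1 (PA28 alpha, ENSMUSG00000022216.17, chr14:55578123-55581529, +) had 115, 105, 122 and 128 counts in the WT lanes and 176, 178, 198 and 167 in the CD36_KO lanes. Its lanes did not overlap, and its log2 ratio of 0.38 (0.21 to 0.55) stayed under 1.5-fold. By TPM it was the highest proteasome gene in CD36_KO, at 55.2 ± 8.07 beside 24.8 ± 2.74 in WT, where Psmb4 led at 42.6. Its partner Psme2 (PA28 beta, ENSMUSG00000079197.10, chr14:55587441-55591113, −) had 121, 109, 122 and 115 counts beside 118, 119, 114 and 118, a log2 ratio of -0.23 (-0.42 to -0.04) that turned to 0.40 by TPM. Its lanes overlapped in counts but not in scaled CPM. The nuclear PA28 gamma, Psme3, was at -0.56 (-0.72 to -0.41) and PA200, Psme4, at -0.18 (-0.32 to -0.05).

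The gene with the highest ratio, Psme2b (ENSMUSG00000078153.3, chr11:48945354-48946190, −), is a near copy of Psme2, and its value depends on how reads were divided between them. It had 7.25, 5.01, 9.02 and 17.1 estimated counts in the WT lanes and 48.7, 61.5, 56.4 and 46.6 in the CD36_KO lanes, a log2 ratio of 2.25 (1.75 to 2.79). At 4.04 CPM in WT and 19.2 in CD36_KO it passed the filter only through CD36_KO. The coding regions are 717 bases each, differ at 5 bases and are 99.3% identical, and a stretch with 3 of the differences shows how little there is to tell them apart. It is printed from GENCODE M21 transcripts on GRCm38, coding bases 424 to 543 counted from the start codon, with the differing bases in capitals.
Psme2: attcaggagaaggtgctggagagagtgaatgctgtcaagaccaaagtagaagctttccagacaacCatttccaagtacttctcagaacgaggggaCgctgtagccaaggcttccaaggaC
Psme2b: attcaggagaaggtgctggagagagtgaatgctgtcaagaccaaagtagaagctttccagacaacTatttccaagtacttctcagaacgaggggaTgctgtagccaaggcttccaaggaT
Of the 807 words of 31 bases in Psme2b, 78.4% also occur in another gene, 617 of them in Psme2. Summed, the pair of genes had 505 and 682 counts, a log2 ratio of 0.20 (0.03 to 0.36), and the part assigned to Psme2b was 7.52% in WT and 31.2% in CD36_KO. Psme2b also lies within Gm12185 on the same strand (56 and 158 counts) and meets 9930111J21Rik1 (226 and 729 counts, log2 1.45). Within 100000 bases lie Tgtp1 (log2 1.81), an interferon-gamma induced GTPase, 9930111J21Rik2 (1.78), Gm5431 (0.60) and Irgm1 (0.45), another such GTPase.

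The lower values of the constitutive genes were close to those of other short and well-expressed genes. The proteasome genes had a median length of 1354 bases beside 2890 for all measured genes, and the fragment length implied by the deposited effective lengths was 158.8 to 160.1 bases over WT lanes and 193.0 to 193.6 over CD36_KO lanes. When the median of protein-coding genes of like expression and length was taken from each value, the median of the 46 moved from -0.46 to -0.0715. For the 31 constitutive core and cap genes it moved from -0.52 to -0.15, with 22 below 0 and 9 above. The constitutive catalytic genes stayed lowest, at a median of -0.34, with Psmb5 at -0.61, while the alpha ring came to 0.03. Psmd8 at -0.53 and Psmd7 at -0.52 again stood next to Psmb5. The immune subunits, Psme1, Psme2 and Psme2b were all above 0 on this scale, at 0.25 for Psmb10, 0.67 for Psmb8, 1.07 for Psmb9, 0.83 for Psme1, 0.22 for Psme2 and 2.59 for Psme2b.

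**Figure D4:**
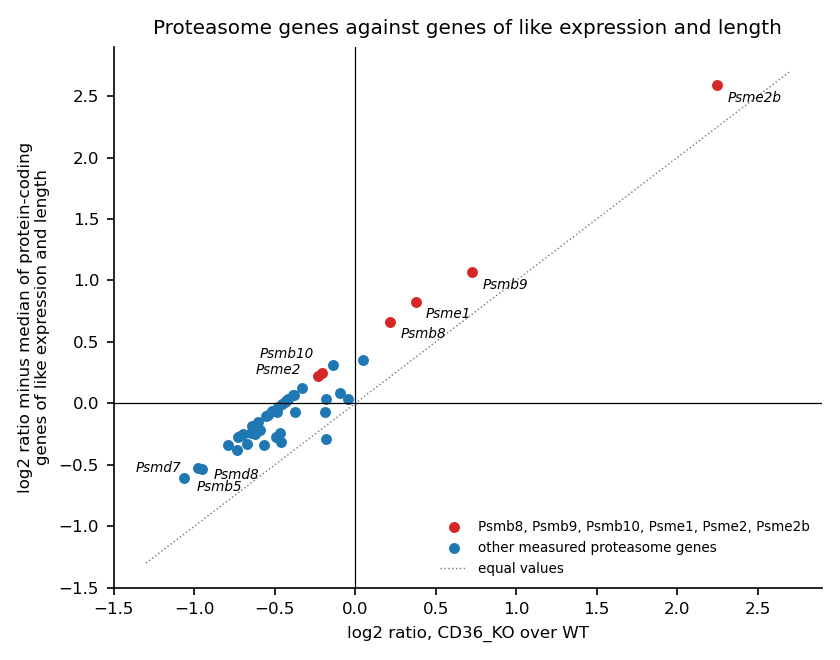
Log2 ratio after the median of protein-coding genes of like expression and length was taken off (vertical axis) against the log2 ratio itself (horizontal axis), 1 point per measured proteasome gene, with a dotted line of equal values. Psmb5, Psmd7 and Psmd8 stay below 0 on both axes, and the bulk of the blue points comes close to 0 on the vertical axis. All 6 red points (immune subunits, Psme1, Psme2 and Psme2b) lie above 0 there, while PA28 gamma, Psme3, is blue and lies below 0.

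Transcript types differed between the libraries as well. Of all proteasome counts, 11.9% in WT and 16.5% in CD36_KO fell on transcripts annotated as other than protein-coding, beside 47.0% in both libraries over all genes. For Psmb8 the share on transcripts with a retained intron was 61.4% in WT and 48.8% in CD36_KO. Its main retained-intron transcript had 221.2 and 119.9 counts, while 2 of its coding transcripts had 150.1 and 227.3, and 16.3 and 71.6. For Psmb9 the retained-intron share ran the other way, at 36.3% and 44.0%, and for Psmb10 it was 24.2% and 32.1%. Of the 32 measured genes with counts on such transcripts, the share was higher in CD36_KO for 29 and lower for 3 (Psmb8, Psma3 and Psmd5). The like count over all measured genes was not made, so a shift of the whole library cannot be told from a trait of these genes. The widest gap was that of Psmg3, at 4.96% and 42.3%, but it rests on only 3.17 and 20.7 estimated counts of Psmg3-203. The next was that of the lid gene Psmd13, at 10.2% and 29.5%. Its log2 ratio was -0.43 on all transcripts and -1.07 on coding ones.

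Genes that work with the proteasome but carry other names were read from lists. Of 14 partners measured, 2 were at least 1.5-fold lower, Sem1 (-0.94), a lid component, and Adrm1 (-0.64), a ubiquitin receptor, and none was higher, which is no larger a share than over all measured genes (23.2% lower and 13.5% higher). Their median was -0.41, with Uchl5, a deubiquitinase of the cap, at 0.24 and Akirin2, which carries proteasomes into the nucleus, at -0.02 as the highest. The maturation factor Pomp was at -0.54. None of 6 ubiquitin and E1 genes passed 1.5-fold (median -0.30), with Uba1, the main activating enzyme, at -0.54. Among Nfe2l1 and the 3 proteins that activate it, 1 was at least 1.5-fold lower, the ATPase Vcp (-0.65), and Nfe2l1 itself was at -0.24 (-0.36 to -0.12).

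Genes that carry proteasome products to MHC class I moved in both directions. Of 11 measured, 4 were at least 1.5-fold higher and 2 lower, beside 13.5% higher and 23.2% lower over all measured genes, with a median of 0.38. Nlrc5, the transactivator of class I genes, had 610 counts in WT and 1877 in CD36_KO, a log2 ratio of 1.38 (1.25 to 1.52). Tap1, a subunit of the peptide transporter whose gene lies beside Psmb9, was at 0.84 (485 and 1026 counts), and Erap1, which trims peptides, at 0.84 (474 and 1000). The endoplasmic reticulum chaperones Calr (-0.87) and Pdia3 (-0.84) were the lower genes. The list of interferon-gamma signalling genes held 7, of which 1 is not reported here. In it the factor Irf1 was at 0.92, the kinase Jak1 at 0.85 and the receptor chain Ifngr1 at 0.74. Each was at least 1.5-fold higher, as were 13.5% of all measured genes. The kinase Jak2 was at 0.14, the receptor chain Ifngr2 at -0.18 and the feedback inhibitor Socs1 at 0.42, with intervals that include no difference. Psmb8 and Psmb9 share their stretch of chromosome 17 with Tap2 (0.38), H2-Ob (1.54) and H2-Ab1 (-0.22), so neighbours within the class II region differed among themselves.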

How the data were processed

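RNA was profiled in 8 samples, titled as 4 lanes of 1 library for each of WT and CD36_KO. Per the submitters' processing notes, kallisto and DESeq2 were used with build GRCm38.p6; they state no version, annotation release or strand setting. The deposited files hold, per transcript, estimated counts without normalisation and TPM, which kallisto scales for effective length and lane total. The members and gene lists were chosen with earlier results of these data known.

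Estimated counts of 142351 transcripts were summed by gene and over lanes and rounded to whole numbers. Totals were 10071960 (WT) and 10363391 (CD36_KO), from 2497048 to 2611740 per lane, and 33.5% to 35.1% of values per lane were not whole. TMM factors (edgeR 4.0.16, R 4.3.3) were 0.934 and 1.071. Values are log2 ratios of TMM-scaled CPM, CD36_KO over WT, with exact Clopper-Pearson 95% intervals of the share of counts in 1 library; pairs used the exact conditional interval of the odds ratio (scipy 1.17.1). Intervals cover counting error only. Measured genes had a mean of at least 5 CPM. A gene was called at 2-fold or 1.5-fold when its interval excluded no difference. Lanes do not measure variation between mice, so no p-value is given. Every gene taken by the symbol rule was accounted for by role. From the partner and class I lists, genes at least 2-fold different and the 2 highest and 2 lowest were named; others named from the lists were chosen after their values were seen, and 1 gene of the interferon-gamma list is not reported here. TPM contrasts used log2(TPM + 1). For the length and expression correction, measured protein-coding genes were split into 10 expression bins of 5 length bins each. Shared words of 31 bases were counted in GENCODE M21 transcripts, which matched 99.1% of those in the files. The script was tested on simulated data. Alternatives were other scalings (total counts, DESeq2 1.42.0 size factors, TPM), other filters, protein-coding transcripts alone, and each lane left out.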

Additional observations from a re-analysis of the deposited data

Results flagged for a closer look

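Each of the 46 measured genes was checked in each library for a lane far from the other 3, and 5 of 92 such groups had one, where chance gives about 5%. The CD36_KO lane with the most Psmd9, a cap chaperone, had 16.5 CPM. The WT lane with the most Psmc1, a cap ATPase, had 54.3 CPM. The lane with the least Psmd6 in WT had 31.2 CPM, the one with the least Psmc5 in CD36_KO 22.9 CPM, and the one with the least Psmc3 in WT 65.9 CPM. These are lanes of 1 library, and none of the 5 genes is a catalytic subunit.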

How the results depend on the processing

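No paired analysis was possible because lanes of 1 library are no pairs and the results come from no test. The number of genes at least 1.5-fold lower, 15, became 4 with total counts, 0 with TPM and 1 against genes of like expression and length, was 10 on protein-coding transcripts, and lay between 10 and 17 with 1 lane left out. Those at least 1.5-fold higher, 2, became 1 with a minimum of 20 CPM, 5 with TPM (10.9%, beside 33.2% of all measured genes), 4 against like genes and 3 on protein-coding transcripts (Psmb8, Psma3 and Psme2b, without Psmb9), and stayed at 2 with any lane left out. At 2-fold, the single lower gene became 0 with total counts, TPM and the like-gene correction, 2 on protein-coding transcripts (Psmd13 at -1.07 and Psmg3 at -1.20, with Psmb5 at -0.91), and 0 to 1 with a lane left out: Psmb5 came to -0.94 without WT lane 3 and -0.99 without WT lane 4, and without CD36_KO lane 3 it came to -0.99 while Psmd7 passed at -1.02. The single higher gene became 0 at 20 CPM, 3 with TPM (beside 12.3% of all measured genes) and 2 against like genes. It stayed at 1 with any lane left out. The median of -0.46 became -0.27 with total counts, -0.35 on protein-coding transcripts, -0.0715 against like genes and 0.11 with TPM, and lay between -0.47 and -0.38 with a lane left out. Relative to all genes, -0.33 became -0.44 without a filter, -0.26 with TPM and -0.0715 against like genes, and -0.35 to -0.30 with a lane left out.

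By TPM 29 of the 41 genes with a negative value turned positive, among them 4 that had been at least 1.5-fold lower: Psmb2 (0.041), Psmc3 (0.0014), Psmc4 (0.027) and Psmg1 (0.070). The ratio of ratios on protein-coding transcripts was 1.69 for Psmb8 with Psmb5 and 0.91 for Psmb9 with Psmb6. With a lane left out it lay between 1.22 and 1.35 for Psmb8, 1.27 and 1.51 for Psmb9, 0.51 and 0.65 for Psmb10, and 0.97 and 1.10 for the sums. Psme2 with Psme2b added, chosen after seeing the data, gave 0.20. The cause of these shifts was not tested.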

Other observations

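Besides Psme2b, several members share sequence with other genes, which leaves their counts open to division by pseudoalignment. Of the 50 genes, 14 shared over 10% of their 31-base words with another gene and 13 shared none. Psmb5 shared 71.7% of its words, chiefly with Gm3375, and Psma5 61.0%, chiefly with Gm8394, and both of these had 0 counts in both libraries. Psmb7 shared 11.3%, and 10.3% with Nek6, a gene on the opposite strand that overlaps it over 6571 bases and had 505 and 434 counts. Psmb8 shared 13.7%, and 13.0% with its antisense gene Gm20496, which had 3 and 5 counts. Psmb9 overlaps Tap1 on the opposite strand over 212 bases, and without a stated strand setting reads of that stretch cannot be told apart.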
